A study of Mus musculus with 12 samples.

Results

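A set of 10 genes through which macrophages bind, test and take up dying cells was followed in M2-like BMDM exposed to IFNβ: the receptors Mertk, Axl, Lrp1 and Timd4, the bridging molecules Gas6, Pros1 and Mfge8, the inhibitory pair Cd47 and Sirpa, and the annexin Anxa1. They were chosen by name for their place in this process, with earlier results of these data known. They are 10 of the 56748 genes listed, all protein-coding. Levels were taken from bulk RNA sequencing of 12 libraries, 3 in each of 4 conditions. BMDM are macrophages grown in culture from bone marrow, here of C57BL/6J mice, with 20 ng/mL M-CSF and then brought to an M2-like state with 10 ng/mL IL4 for 48 h. These steps were common to all libraries, the controls included.

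For the next 72 h the cells stayed in plain medium (untreated control), or received recombinant IFNβ (rIFNβ), or received culture supernatant of YUMM5.2, a mouse melanoma cell line, carrying a lentiviral construct under a promoter switched on by doxycycline (Dox). The construct expressed Ifnb1 with eGFP in the donor cells of the Ifnb1eGFP supernatant and eGFP alone in those of the eGFP supernatant. Both donor lines had been kept in 1 µg/mL Dox for 72 h. The Ifnb1eGFP supernatant was brought to 1500 pg/mL IFNβ, rIFNβ was used at the same concentration, and the eGFP supernatant was diluted by the same ratio. Libraries from cells given supernatant therefore differ from the other libraries in tumour cell products and in any Dox carried over, which cannot be told apart. The series gives 3 mice per condition and does not say whether 1 mouse supplied cells to several conditions, so the p-values below measure the spread between these libraries.

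Efferocytosis is the clearance of dying cells by phagocytes. A dying cell exposes phosphatidylserine on its surface, which soluble bridging molecules carry to receptors on the macrophage: GAS6 and protein S (Pros1) link it to the TAM receptor tyrosine kinases TYRO3, AXL and MERTK, MFG-E8 links it to αv integrins, and TIM-4 (Timd4) binds it directly. LRP1 recognises calreticulin on the target cell, while CD47 on a target cell engages SIRPα on the macrophage and inhibits uptake. MERTK is known for clearance by resting and M2-like macrophages, and AXL as the TAM receptor that inflammatory stimuli raise.

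Of the 10 members, 9 passed the filter on low counts and entered the test with 15033 genes. Timd4 had 0 to 3 counts in each library and was not tested. With Ifnb1eGFP supernatant against eGFP supernatant, 3 members were higher (Axl, Cd47 and Mertk), 5 were lower (Mfge8, Gas6, Anxa1, Lrp1 and Pros1) and Sirpa did not pass the test, by edgeR's quasi-likelihood test with a limit of 0.05 on the Benjamini-Hochberg adjusted p. That is 8 of 9 tested members, where 55.1% of all genes tested were called, 30.1% higher and 25% lower. With rIFNβ against untreated control the same 8 members were called in the same directions, where 55.3% of all genes were called, 30.7% higher and 24.6% lower. The median log2 fold change of the 9 tested members was -0.44 in the supernatant comparison and -0.53 in the rIFNβ comparison, against 0.03 and 0.04 over all genes tested. Since 55.1% and 55.3% of all genes were called, a call alone sets no member apart. The study's methods set stricter limits (a log2 value of 2 or more in either direction and an adjusted p no higher than 0.01). Mfge8 was the only member past these in both comparisons, where 5.39% and 5.77% of all genes were. The libraries of the groups did not overlap for the same 8 members in both comparisons, where this was so for 59% of all genes with supernatant and 66.1% with rIFNβ.

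The sequence before the start site is shown for 5 members, because their levels moved most or because a searched motif lay there. These are Cd47 and Axl, with the largest rises, Mfge8, with the largest fall, and Pros1 and Lrp1, which held a match. Each line gives the 250 bases that end just before the annotated start, read 5′ to 3′ along the gene, from the RefSeq promoter table on GRCm38.p6, with coordinates of that build. The table held 9 of the 10 members, with 10 start sites. Sirpa was not matched in it. Capitals mark the GAS core, TTCNNNGAA, the core of the gamma interferon activated sequence, which reads the same on both strands. The ISRE core, GAAANNGAAA or TTTCNNTTTC on the other strand, the core of the interferon-stimulated response element found in many type I interferon target genes, was also searched. For Cd47, which has 2 start sites in the table, the first is shown.
Cd47 (chr16:49855404-49855653, plus strand): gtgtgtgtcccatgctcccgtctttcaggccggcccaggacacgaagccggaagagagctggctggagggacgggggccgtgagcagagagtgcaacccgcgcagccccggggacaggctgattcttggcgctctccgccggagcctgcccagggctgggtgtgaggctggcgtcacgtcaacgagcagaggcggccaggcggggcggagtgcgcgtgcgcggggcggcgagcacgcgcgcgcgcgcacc
Axl (chr7:25788734-25788983, minus strand): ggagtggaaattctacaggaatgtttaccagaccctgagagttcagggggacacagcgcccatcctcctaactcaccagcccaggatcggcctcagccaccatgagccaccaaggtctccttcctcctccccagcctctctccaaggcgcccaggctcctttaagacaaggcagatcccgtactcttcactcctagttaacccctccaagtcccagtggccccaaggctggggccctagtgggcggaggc
Mfge8 (chr7:79149061-79149310, minus strand): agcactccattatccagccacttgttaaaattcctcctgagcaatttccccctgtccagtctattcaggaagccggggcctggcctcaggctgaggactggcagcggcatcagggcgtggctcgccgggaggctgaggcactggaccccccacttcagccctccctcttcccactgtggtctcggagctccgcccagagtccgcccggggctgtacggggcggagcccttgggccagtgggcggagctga
Pros1 (chr16:62854057-62854306, plus strand): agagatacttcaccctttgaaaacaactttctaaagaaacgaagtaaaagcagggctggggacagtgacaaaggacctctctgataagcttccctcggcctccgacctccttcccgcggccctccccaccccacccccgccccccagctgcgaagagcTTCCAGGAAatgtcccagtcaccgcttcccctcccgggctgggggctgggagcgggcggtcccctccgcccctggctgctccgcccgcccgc
Lrp1 (chr10:127621149-127621398, minus strand): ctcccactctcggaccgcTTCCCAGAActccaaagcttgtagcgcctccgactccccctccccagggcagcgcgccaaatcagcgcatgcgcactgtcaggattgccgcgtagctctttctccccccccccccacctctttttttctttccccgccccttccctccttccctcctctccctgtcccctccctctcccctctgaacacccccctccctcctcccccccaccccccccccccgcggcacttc

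Pros1 carried the GAS core 92 to 84 bases before its start, as TTCCAGGAA, and Lrp1 carried it 232 to 224 bases before, as TTCCCAGAA. Both genes had lower levels with IFNβ, as did Mfge8, Gas6 and Anxa1, which had no match. The other 7 matched members had no match, so 2 of 9 members (22.2%) carried the GAS core, against 8.13% of the 27025 genes in the table searched over the same length. The ISRE core was found in 0 of 9 members and in 3.46% of all genes. Counted by promoter, the 2 cores were held by 7.02% and 2.98% of 32851. A match is a string of letters and no measured site, and a window without a match says nothing of the factor. The motifs were not part of any test.

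As a check of the labels, interferon response genes were higher in each exposed library. Summed over 10 interferon response genes, levels were 223 to 341 CPM (counts scaled to a common library size) in 5 of the 6 libraries without IFNβ, 1107 CPM in eGFP supernatant replicate 2, and 11113 to 12290 CPM in the 6 exposed libraries. All 10 of these genes were called higher in both IFNβ comparisons. Without eGFP supernatant replicate 2, 7 members in place of 8 were called in the supernatant comparison, Lrp1 being lost (log2 fold change -0.65, adjusted p = 0.0703 by edgeR's quasi-likelihood test). Library totals were 31526034 to 45348457 counts, and 1 count was worth 0.0217 to 0.0318 CPM. Macrophage markers summed to 14635 to 19087 CPM without IFNβ and to 10253 to 11227 CPM with it, with 3 of 7 called higher and 2 (Itgam and Lyz2) called lower. The melanoma marker list summed to 0.223 to 0.810 CPM, with Tyrp1 at 0 in all libraries and only Pmel of 6 markers tested and not called. The fibroblast list stood at 31.3 to 71.7 CPM with eGFP supernatant, 57.7 to 81.3 CPM with Ifnb1eGFP supernatant, 36.9 to 85.9 CPM in untreated control and 51.2 to 77.9 CPM with rIFNβ, with all 6 markers tested, Dcn and Pdgfra called higher and Col1a1 called lower in both IFNβ comparisons, and Col3a1 called lower with rIFNβ.

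Markers of other cells that a bone marrow culture could hold stood at low levels and differed with IFNβ. Neutrophil markers summed to 4.28 to 5.72 CPM without and 0.208 to 0.985 CPM with IFNβ, with 1 of 6 tested (S100a8, called lower) and Ly6g, Mpo and Retnlg at 0 in all 6 unexposed libraries. Dendritic cell markers summed to 1.56 to 2.03 against 0.348 to 0.733 CPM, with 2 of 6 tested, of which 2 were lower with Ifnb1eGFP supernatant and 1 with rIFNβ, and Siglech at 0 in 3 conditions. T and NK cell markers summed to 0.254 to 0.682 against 0.0248 to 0.0758 CPM, with Cd3e at 0 in all unexposed and Cd3g in all exposed libraries. Only 1 of these 6 was tested, and it was called lower. It passed the filter on low counts only through the unexposed libraries, so its call supports nothing here. Mast cell and basophil markers summed to 0.954 to 1.44 against 0.228 to 1.16 CPM, with 1 of 5 tested and lower and Fcer1a at 0 in all unexposed libraries. B cell markers summed to 0.604 to 0.804 against 1.17 to 1.63 CPM, with 2 of 5 tested and higher. The part of these cells in the members' differences was not tested, and calls at such low levels are given as a description only. In bulk RNA, fewer cells that express a gene and less of its RNA per cell cannot be told apart.

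**Figure D1:**
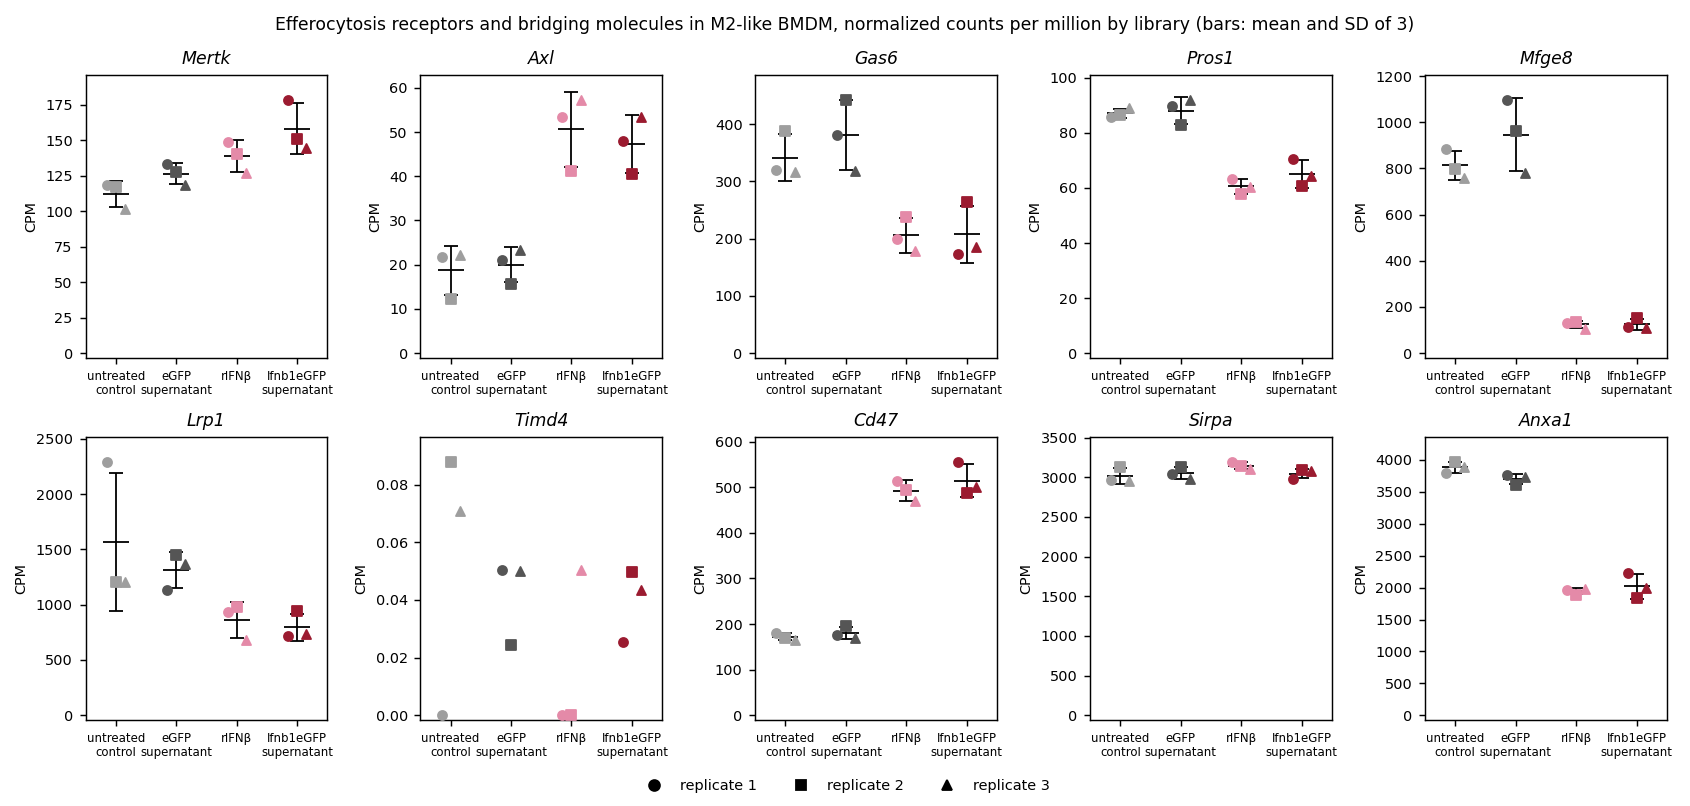
Normalized level in CPM (vertical axis, from about 0, own scale per gene) of each member in each library, by condition; symbols give the replicate number and bars the mean and SD of 3 libraries, left out for Timd4. Cd47 stands at 166 to 196 CPM without and 469 to 555 CPM with IFNβ, while Mfge8 stands at 760 to 1097 CPM without and 106 to 150 CPM with it.

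Both TAM receptors among the members were higher with IFNβ, Axl by more than Mertk. Axl (chr7:25456535-25488329, minus strand, GRCm39) was at 21.1, 15.6 and 23.3 CPM with eGFP supernatant and at 47.9, 40.4 and 53.5 CPM with Ifnb1eGFP supernatant. It was at 21.6, 12.3 and 22.1 CPM in untreated control and at 53.4, 41.1 and 57.3 CPM with rIFNβ. The lowest exposed library lay above the highest unexposed one in each comparison. The log2 fold change was 1.24 ± 0.22 (SE, n = 3 against 3, adjusted p = 0.000558, edgeR's quasi-likelihood test), a 2.36-fold rise, for the supernatants and 1.43 ± 0.22 (adjusted p = 0.000196), a 2.70-fold rise, for rIFNβ. Replicate 2 was the lowest of its condition in all 4 conditions.

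Mertk (chr2:128540729-128645080, plus strand, GRCm39), the receptor that carries much of macrophage efferocytosis, was at 133, 128 and 118 CPM with eGFP supernatant and at 178, 151 and 145 CPM with Ifnb1eGFP supernatant. It was at 118, 117 and 102 CPM in untreated control and at 149, 140 and 127 CPM with rIFNβ. The groups did not overlap in either comparison, but the gaps were small. By log2 fold change, the difference was 0.32 ± 0.09 (SE, adjusted p = 0.0111, edgeR's quasi-likelihood test) for the supernatants and 0.31 ± 0.09 (adjusted p = 0.0144) for rIFNβ. The supernatant call was lost without Ifnb1eGFP supernatant replicate 1 (0.19, adjusted p = 0.0679). The rIFNβ call was lost without untreated control replicate 3 (0.24, adjusted p = 0.0655) and without rIFNβ replicate 1 (0.25, adjusted p = 0.0616).

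All 3 bridging molecules fell with IFNβ from both sources. Mfge8 (chr7:78783515-78798825, minus strand, GRCm39), which encodes the secreted bridge between phosphatidylserine and αv integrins, showed the largest change among the members. It was at 1097, 964 and 780 CPM with eGFP supernatant and at 113, 150 and 109 CPM with Ifnb1eGFP supernatant. It was at 885, 796 and 760 CPM in untreated control and at 132, 133 and 106 CPM with rIFNβ. The highest exposed library stood at 150 CPM and the lowest unexposed one at 760 CPM. This amounted to a log2 fold change of -2.93 ± 0.16 (SE, adjusted p = 4.04e-08, edgeR's quasi-likelihood test), a 7.63-fold fall, for the supernatants and -2.72 ± 0.16 (adjusted p = 6.01e-08), a 6.57-fold fall, for rIFNβ.

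Gas6 (chr8:13515371-13544824, minus strand, GRCm39) encodes the ligand shared by the TAM receptors. It was at 381, 443 and 319 CPM with eGFP supernatant and at 172, 265 and 185 CPM with Ifnb1eGFP supernatant, and at 320, 388 and 316 CPM in untreated control and 199, 239 and 179 CPM with rIFNβ. No exposed library reached an unexposed one. As a log2 fold change, this was -0.88 ± 0.17 (SE, adjusted p = 0.00123, edgeR's quasi-likelihood test) for the supernatants and -0.73 ± 0.17 (adjusted p = 0.00389) for rIFNβ. Replicate 2 was the highest of its condition in all 4 conditions, the reverse of Axl. After subtraction of each condition's mean, the Pearson r of the log2 levels of Gas6 and Axl over the 12 libraries was -0.81. Some other pairs of members were about as strong, such as Pros1 and Anxa1 (0.863) and Gas6 and Pros1 (-0.804), and others were weaker. The value for Gas6 and Axl is given as a description only, and its cause was not tested.

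Pros1 (chr16:62674275-62749710, plus strand, GRCm39), the gene of protein S, a ligand of MERTK and TYRO3, fell less but with a narrow spread. It was at 89.6, 82.8 and 92.0 CPM with eGFP supernatant and at 70.6, 60.6 and 64.5 CPM with Ifnb1eGFP supernatant, and at 85.8, 86.7 and 89.1 CPM in untreated control and 63.3, 58.0 and 60.5 CPM with rIFNβ. The groups did not overlap. Its log2 fold change was -0.44 ± 0.06 (SE, adjusted p = 9.11e-05, edgeR's quasi-likelihood test) for the supernatants and -0.53 ± 0.06 (adjusted p = 2.02e-05) for rIFNβ.

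Lrp1 (chr10:127374012-127457017, minus strand, GRCm39), the large endocytic receptor for calreticulin and apolipoprotein E, was lower with IFNβ, with the largest standard error of the members. It was at 1130, 1445 and 1366 CPM with eGFP supernatant and at 718, 938 and 733 CPM with Ifnb1eGFP supernatant. In untreated control it was at 2289, 1207 and 1205 CPM and with rIFNβ at 933, 976 and 676 CPM. The groups did not overlap, and untreated control replicate 1 stood far above the other 2 libraries of its condition. The log2 fold change was -0.72 ± 0.24 (SE, adjusted p = 0.0236, edgeR's quasi-likelihood test) for the supernatants and -0.86 ± 0.24 (adjusted p = 0.00956) for rIFNβ.

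Without untreated control replicate 1 the rIFNβ value for Lrp1 was -0.49 (adjusted p = 0.0427, edgeR's quasi-likelihood test), still called, and its difference between eGFP supernatant and untreated control went from -0.25 to 0.12, with neither called. In that library the 447 tested genes with transcripts over 10 kb, of which Lrp1 is 1, had a median 0.26 above the other libraries of the condition on the log2 scale, against -0.03 for 7223 genes of 2 to 5 kb. Lrp1 itself stood 0.925 above the other libraries of the condition on this scale, more than the median of its length class. The part of transcript length in the Lrp1 value was not tested. The supernatant call did not survive the removal of any of 4 libraries: eGFP supernatant replicate 2 (-0.65, adjusted p = 0.0703) or 3 (-0.69, adjusted p = 0.0567), and Ifnb1eGFP supernatant replicate 1 (-0.69, adjusted p = 0.0544) or 3 (-0.66, adjusted p = 0.0747).

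Timd4 (chr11:46701620-46735177, plus strand, GRCm39), a direct phosphatidylserine receptor of some tissue-resident macrophages, was at the limit of detection. It had 2, 1 and 2 counts with eGFP supernatant, 1, 2 and 2 with Ifnb1eGFP supernatant, 0, 3 and 3 in untreated control and 0, 0 and 2 with rIFNβ. All 12 values were at or under 3 counts, the amount that a count of 0 still allows, which is 0.0652 to 0.0954 CPM depending on the library. No fold change is therefore given, and a difference was not detectable at this depth.

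Of the inhibitory pair, Cd47 rose with IFNβ from both sources, while Sirpa was not called in either comparison. Both are RNA levels of the macrophages, and uptake of dying cells was not measured. Cd47 (chr16:49620896-49735373, plus strand, GRCm39), the surface protein known as a signal against uptake, was at 177, 196 and 170 CPM with eGFP supernatant and at 555, 489 and 501 CPM with Ifnb1eGFP supernatant. It was at 181, 170 and 166 CPM in untreated control and at 515, 493 and 469 CPM with rIFNβ. Every exposed library exceeded every unexposed one, with a narrow spread on both sides. By log2 fold change, the difference was 1.51 ± 0.07 (SE, adjusted p = 1.05e-08, edgeR's quasi-likelihood test), a 2.85-fold rise, for the supernatants and 1.52 ± 0.07 (adjusted p = 8.71e-09), a 2.86-fold rise, for rIFNβ. Annotated genes that overlap a member reached at most 0.921% of its level, the lncRNA Gm4633 on the opposite strand of Cd47.

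Sirpa (chr2:129434039-129474148, plus strand, GRCm39), the inhibitory receptor for CD47, was at 3041, 3134 and 2980 CPM with eGFP supernatant and at 2978, 3088 and 3073 CPM with Ifnb1eGFP supernatant, and at 2971, 3126 and 2950 CPM in untreated control and 3192, 3142 and 3107 CPM with rIFNβ. The groups overlapped in both comparisons. This amounted to a log2 fold change of -0.00 (95% interval -0.09 to 0.08, adjusted p = 0.958, edgeR's quasi-likelihood test) for the supernatants and 0.06 (-0.02 to 0.14, adjusted p = 0.193) for rIFNβ.

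Anxa1 (chr19:20350792-20368374, minus strand, GRCm39) encodes annexin A1, a phospholipid-binding protein released by phagocytes and dying cells that signals through formyl peptide receptors. It was at 3760, 3607 and 3739 CPM with eGFP supernatant and at 2221, 1836 and 1997 CPM with Ifnb1eGFP supernatant. It was at 3800, 3967 and 3891 CPM in untreated control and at 1964, 1887 and 1981 CPM with rIFNβ. The groups lay far apart relative to their spread. As a log2 fold change, this was -0.88 ± 0.06 (SE, adjusted p = 2.79e-07, edgeR's quasi-likelihood test) for the supernatants and -0.999 ± 0.060 (adjusted p = 8.51e-08), a 2.00-fold fall, for rIFNβ.

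**Figure D2:**
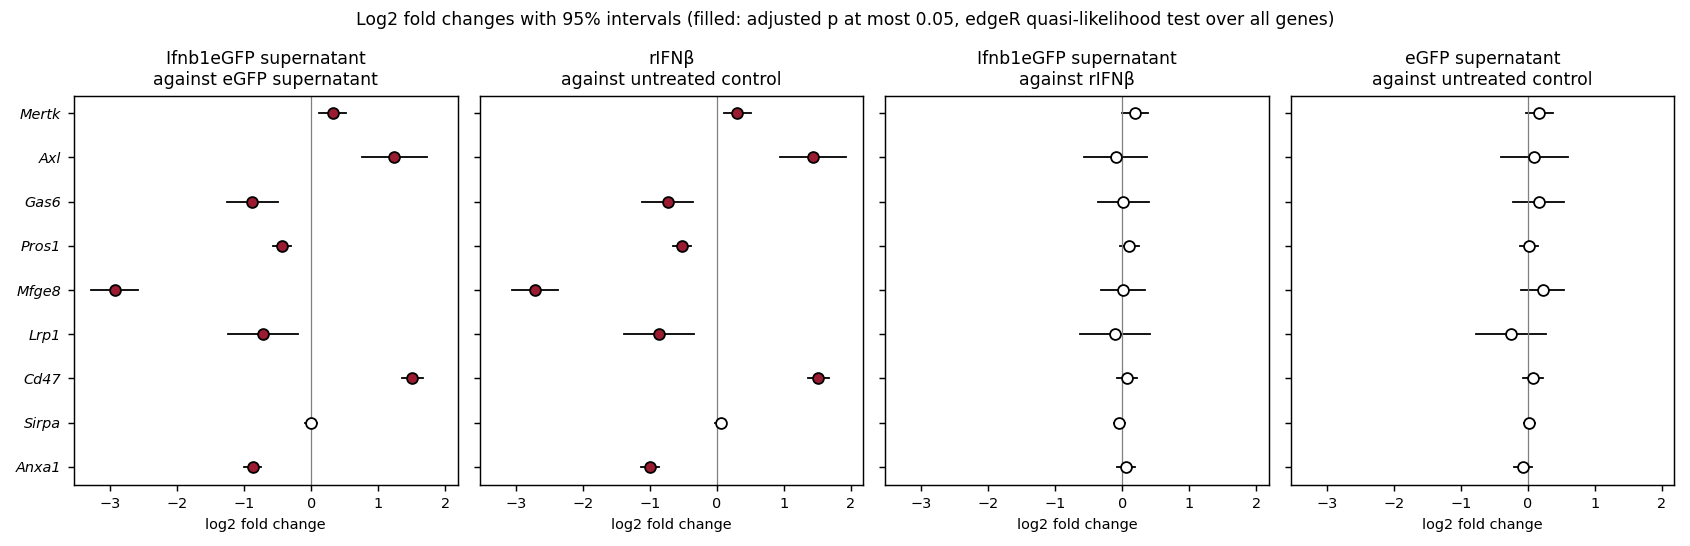
Log2 fold change (horizontal axis) of the 9 tested members in 4 comparisons; points are edgeR estimates, lines their 95% intervals, and filled points have an adjusted p of at most 0.05. In both IFNβ comparisons Axl, Cd47 and Mertk lie right of 0 and Mfge8 lies farthest left, while in the other 2 comparisons every interval includes 0.

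In the comparison of the 2 sources of IFNβ, Ifnb1eGFP supernatant against rIFNβ, 0 of 9 members were called by edgeR's quasi-likelihood test, where 0.16% of all genes were, 0 were called by DESeq2, and 0 had an unadjusted p under 0.05. The estimates were narrow for some members and wide for others. The difference in log2 level was 0.00 for Mfge8 (95% interval -0.32 to 0.33), 0.06 for Cd47 (-0.08 to 0.21), 0.05 for Anxa1 (-0.08 to 0.19), -0.05 for Sirpa (-0.13 to 0.04) and 0.11 for Pros1 (-0.03 to 0.24). For Axl it was -0.10 (-0.57 to 0.37), for Gas6 0.01 (-0.37 to 0.39) and for Lrp1 -0.11 (-0.64 to 0.41), so that differences between the sources of up to these bounds were not detectable. Mertk had the lowest unadjusted p, with a difference of 0.19 (-0.01 to 0.39, adjusted p = 0.592). Only Sirpa had libraries without overlap, 1 of 9 members, where 12.8% of all genes had.

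The supernatant without IFNβ was compared with untreated control to ask what tumour cell products and Dox do alone. Again 0 of 9 members were called by edgeR's quasi-likelihood test, where 0.299% of all genes were, 0 were called by DESeq2, and 0 had an unadjusted p under 0.05. Mertk was at 118 to 133 CPM with eGFP supernatant and at 102 to 118 CPM without. Its libraries did not overlap, though only by 118.3 against 118.1 CPM, as was the case for 2 of 9 members and for 15.5% of all genes. Its log2 difference was 0.17 (95% interval -0.03 to 0.37, adjusted p = 0.716), and that of Anxa1, the other member without overlap, was -0.07 (-0.20 to 0.06, adjusted p = 0.907).

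Averaged over both IFNβ states, supernatant gave 0 calls among the 9 members by edgeR and 0 by DESeq2 in fits that took no account of the replicate number, where edgeR called 0.905% of all genes. Mertk had the lowest unadjusted p, 0.0178 by edgeR's quasi-likelihood test, at a log2 difference of 0.18 ± 0.06 (SE) and an adjusted p of 0.307. With a block for the replicate number in the edgeR fit, Mertk was called (adjusted p = 0.0281), as given at the end. The IFNβ effect with supernatant was also set against that without it. The interaction was called for 0 of 9 members and for 0% of all genes by edgeR and for 0 members by DESeq2, and 661 of the 15033 genes had an unadjusted p under 0.05, of which 0 were members. Its estimates ran from -0.22 for Mfge8 (95% interval -0.68 to 0.24) to 0.14 for Lrp1 (-0.60 to 0.88).

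Set against each other within a library, 2 of 3 pairs of members shifted in their proportion. These ratios use the levels already given, of members chosen with earlier results known, so they are no independent result. How many other gene pairs would shift as much was not computed. In the 2 IFNβ comparisons 55.1% and 55.3% of all genes were called. The ratio of Axl to Mertk, as the log2 of CPM per exon length, averaged -3.59 ± 0.41 (SD) in 6 unexposed libraries and -2.54 ± 0.30 in 6 exposed ones. Mertk thus remained the more abundant of the pair, while the difference of 1.05 was a 2.07-fold shift towards Axl (two-sided exact permutation test within supernatant states, p = 0.005, the smallest that its 400 relabellings allow). The ranges did not overlap, at -4.18 to -3.13 without and -2.83 to -2.08 with IFNβ.

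The ratio of Cd47 to Sirpa averaged -4.43 ± 0.07 (SD) without and -2.95 ± 0.10 with IFNβ, a difference of 1.48 or 2.80-fold (two-sided exact permutation test, p = 0.005). The exposed libraries lay between -3.05 and -2.75 and the unexposed ones between -4.53 and -4.33. Since Sirpa was not called, this ratio follows the Cd47 values already given. For the ligands, Gas6 to Pros1, the ranges overlapped, at 1.99 to 2.62 without and 1.49 to 2.33 with IFNβ, and the difference of -0.33 did not pass the test (two-sided exact permutation test, p = 0.085). It did pass the same exact permutation test without Ifnb1eGFP supernatant replicate 2 (-0.45, p = 0.035) and without rIFNβ replicate 2 (-0.40, p = 0.05). The difference also passed an exact sign permutation over pairs of the same replicate number, as given at the end. Over the 3 ratios the Benjamini-Hochberg adjusted p-values of these permutation tests were 0.0075, 0.0075 and 0.085.

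**Figure D3:**
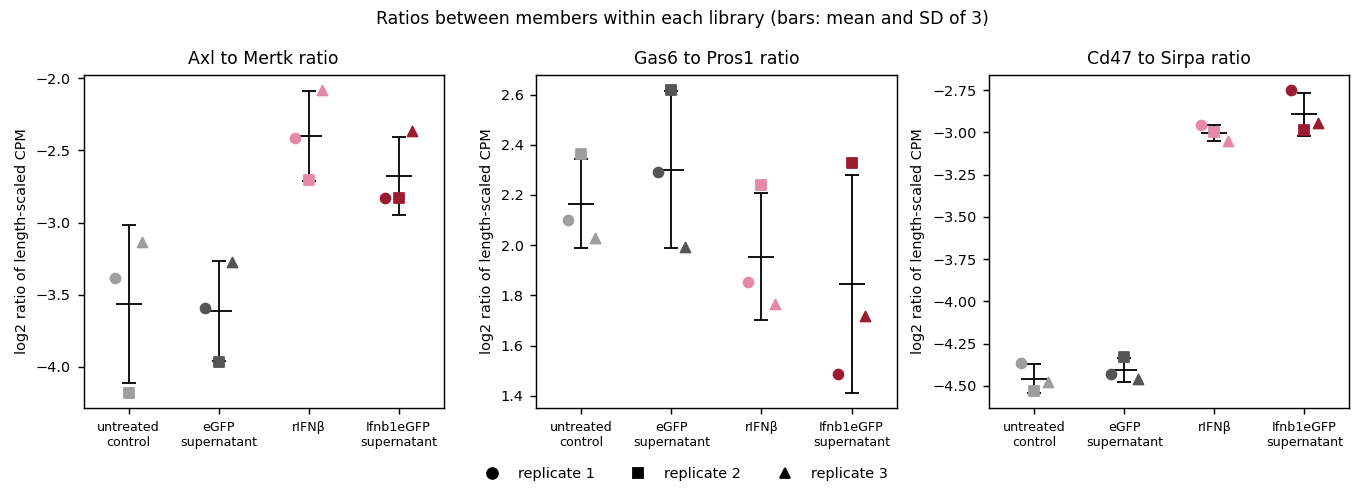
Log2 ratio of the length-scaled levels of 2 members in each library (vertical axis), by condition; symbols give the replicate number and bars the mean and SD of 3 libraries. Axl to Mertk and Cd47 to Sirpa stand higher in all 6 exposed libraries than in any unexposed one, while Gas6 to Pros1 ranges overlap.

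Levels of different members were compared only per kb of annotated exon (CPM per kb). Anxa1 was the highest in all 4 conditions, at 1243 ± 26.8 CPM per kb (SD, n = 3) in untreated control and 622 ± 16.1 with rIFNβ, followed by Sirpa, at 431 ± 13.8 and 450 ± 6.1. Mfge8 was next in untreated control, at 171 ± 13.4, and at 26.0 ± 3.2 with rIFNβ, where its range overlapped that of Mertk (28.8 ± 2.3). Cd47 took the opposite course, from 19.6 ± 0.88, below Mertk (23.3 ± 1.9), to 56.1 ± 2.6 with rIFNβ, where only Anxa1 and Sirpa stood higher.

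Lrp1 and Gas6 overlapped in each condition, at 76.5 ± 30.5 and 62.1 ± 7.4 CPM per kb in untreated control and 42.0 ± 7.9 and 37.4 ± 5.5 with rIFNβ. Pros1 (13.8 ± 0.27, then 9.6 ± 0.42), Axl (2.03 ± 0.60, then 5.51 ± 0.92) and Timd4 closed the order in all conditions. With Ifnb1eGFP supernatant Lrp1, Gas6, Mertk and Mfge8 formed a chain in which each overlapped the next, from 38.8 to 26.1 CPM per kb. The length used matters for close neighbours: with the longest annotated transcript in place of all exons, Mertk and Cd47 exchanged places in both unexposed conditions, as did Mertk and Mfge8 with rIFNβ.

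**Figure D4:**
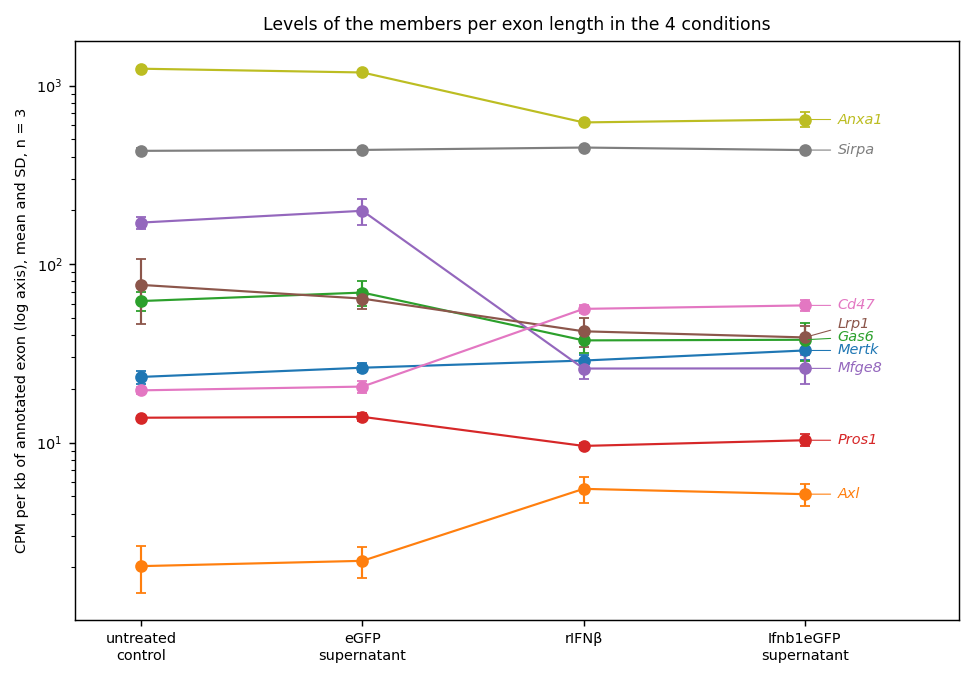
Mean level per kb of annotated exon (vertical log axis, CPM per kb, bars SD, n = 3) of the members other than Timd4 in the 4 conditions; lines only connect values of 1 gene. Mfge8 drops from 171 in untreated control to 26.0 with rIFNβ, Cd47 rises from 19.6 to 56.1, and Sirpa stays between 431 and 450.

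The rest of the pathway was described with 99 further genes in 10 lists by role, likewise chosen with earlier results of these data known. Of these genes, 92 were tested. With Ifnb1eGFP against eGFP supernatant 33 were called higher, 43 lower and 16 were not called, which is 35.9% higher and 46.7% lower, where 30.1% and 25% of all genes were. With rIFNβ against untreated control 30 were higher, 42 lower and 20 not called, which is 32.6% higher and 45.7% lower. Of all genes 30.7% were higher and 24.6% lower there. The counts of both comparisons include Fpr2 and Cx3cr1, whose calls support nothing, as given below. The median log2 fold change was -0.11 and -0.03, against 0.03 and 0.04 over all genes. In what follows, the first value of a gene is its log2 fold change with supernatant and the second that with rIFNβ, and a gene is said to rise or fall where edgeR's quasi-likelihood test called it. The counts of each list below stand beside these shares of all genes. No list was tested as a set, and a count near the shares shows no trait of its list.

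**Figure D5:**
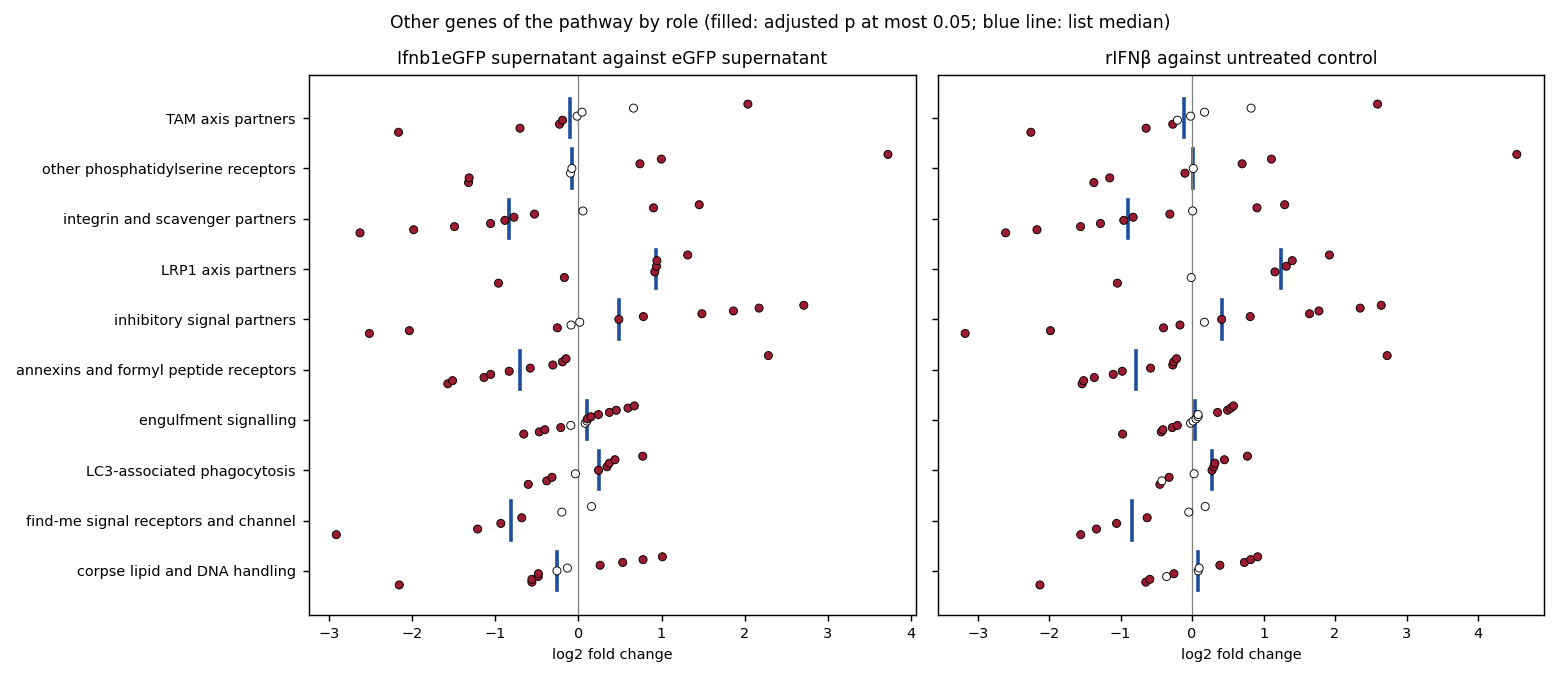
Log2 fold change (horizontal axis) of the tested genes of 10 pathway lists in both IFNβ comparisons; 1 point per gene, filled where edgeR called it, with the list median in blue. Of the annexin list 9 of 10 genes lie left of 0. LRP1 partners, among them C1qa, C1qb and C1qc, have the highest median, 0.93 and 1.24.

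Among the partners of the TAM receptors, 1 of 8 tested rose and 4 fell with supernatant, and 1 rose and 3 fell with rIFNβ. The third TAM receptor went down where the other two went up: Tyro3 fell from 3.21 ± 0.25 to 0.714 ± 0.13 CPM (SD, n = 3; -2.17 and -2.26, adjusted p = 8.85e-07 and 6.53e-07 by edgeR's quasi-likelihood test). Adam17, a sheddase that cleaves MERTK from the surface, fell by little (-0.19 and -0.27). Socs1, a feedback inhibitor of cytokine signalling, rose (2.04 and 2.59) at a level of 1.48 ± 0.42 CPM with Ifnb1eGFP supernatant.

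Of 7 other receptors for phosphatidylserine tested, 3 rose and 2 fell with supernatant, and 3 rose and 3 fell with rIFNβ. Of all genes, 30.1% rose and 25% fell with supernatant, and 30.7% and 24.6% with rIFNβ. Cd300lf, a receptor of the CD300 family, rose from 4.41 ± 0.83 to 58.6 ± 4.9 CPM (3.73 and 4.54). Stab2, the scavenger receptor stabilin-2, fell (-1.32 and -1.37).

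Most of the list of integrins, scavenger receptors and a bridging ligand fell, 7 of 10 in both comparisons with 2 rising. Itgb3 and Itgb5, chains that pair with αv, fell while αv itself rose. Itgb3 went from 126 ± 4.9 to 20.3 ± 1.9 CPM (-2.63 and -2.61, adjusted p = 8.27e-10 and 7.13e-10 by edgeR's quasi-likelihood test) and Itgb5 from 345 ± 18.0 to 187 ± 28.5 CPM (-0.89 and -0.83), whereas Itgav went from 139 ± 4.0 to 260 ± 25.4 CPM (0.90 and 0.91). Thbs1, thrombospondin 1, which bridges dying cells to CD36 and αv integrin, rose most (1.45 and 1.295).

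Of the LRP1 partners, 4 of 6 rose and 2 fell with supernatant, and 4 rose and 1 fell with rIFNβ. The 4 that rose were C1qa, C1qb and C1qc, all chains of the complement opsonin C1q, and Apoe. All but C1qa are named after their values were seen. C1qa rose from 61.5 ± 8.3 to 153 ± 52.8 CPM (1.32 and 1.92). Calr, the gene of calreticulin, fell from 978 ± 33.0 to 501 ± 4.1 CPM (-0.96 and -1.05). Lrpap1, the chaperone of LRP1, had a small fall with supernatant (-0.17, adjusted p = 0.0241 by edgeR's quasi-likelihood test) and was not called with rIFNβ (-0.01, adjusted p = 0.874), and the interaction was not called for any gene.

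Among partners of the inhibitory signal, 6 of 11 rose and 3 fell with supernatant, and 6 rose and 4 fell with rIFNβ. Ptpn6, the phosphatase SHP-1 that SIRPα recruits, rose from 177 ± 7.6 to 305 ± 5.6 CPM (0.78 and 0.81). Its relative Ptpn11 (SHP-2) was at -0.09 (adjusted p = 0.0846 by edgeR's quasi-likelihood test) and -0.17 (adjusted p = 0.00404). Qpctl, the enzyme that modifies the CD47 terminus for SIRPα binding, was not called (0.01 and 0.17, adjusted p = 0.901 and 0.123). Sirpb1a rose most (2.71 and 2.65), from 1.21 ± 0.27 to 7.93 ± 1.1 CPM, although reads of the closely related SIRP genes may be shared among copies. Cd24a, which encodes another surface signal against uptake, fell (-2.52 and -3.18) at a level of 3.21 ± 0.20 CPM with eGFP supernatant.

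Most tested annexins and partners fell, as Anxa1 did. Of 10 tested genes in this list 9 fell and 1 rose in both comparisons, with a median of -0.71 and -0.78. Of all genes, 25% and 24.6% fell and 30.1% and 30.7% rose. The list was chosen with earlier results of these data known. Anxa3 fell most, from 280 ± 5.3 to 94.1 ± 1.4 CPM (-1.57 and -1.54). The gene called higher was Fpr2, a receptor for annexin A1, with 1 to 9 counts in the unexposed and 16 to 42 in the exposed libraries. It passed the filter on low counts only through the exposed libraries, so its call supports nothing here and no fold change is given. Fpr1 was not tested.

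Genes for internalization had medians of 0.10 and 0.03 in the engulfment list and 0.24 and 0.28 in that for LC3-associated phagocytosis. In the engulfment list 7 of 14 rose and 4 fell with supernatant, and 4 rose and 5 fell with rIFNβ. Vav3, an exchange factor for Rac, rose (0.67 and 0.58) and Dock2, another exchange factor for Rac, fell from 515 ± 7.7 to 326 ± 18.4 CPM (-0.66 and -0.97). In the list for LC3-associated phagocytosis 5 of 9 rose and 3 fell with supernatant, and 5 rose and 2 fell with rIFNβ. Uvrag, a subunit of a class III phosphatidylinositol 3-kinase complex, rose (0.77 and 0.77). Cyba, a subunit of the phagocyte NADPH oxidase, fell with supernatant (-0.60, adjusted p = 0.0136 by edgeR's quasi-likelihood test) and was not called with rIFNβ (-0.42, adjusted p = 0.0648).

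Receptors and a channel for find-me signals, which draw phagocytes to dying cells, fell in 4 of 6 cases and rose in 0 in both comparisons. The 4 include Cx3cr1, the fractalkine receptor, which had 9 to 59 counts in the unexposed and 2 to 11 in the exposed libraries. It passed the filter on low counts through the unexposed libraries, so its call supports nothing here and no fold change is given. Among genes for handling the lipid and DNA of ingested corpses, 4 of 11 rose and 5 fell with supernatant, and 4 rose and 4 fell with rIFNβ. Pparg, a lipid-sensing nuclear receptor, rose from 35.6 ± 3.6 to 71.8 ± 3.7 CPM (1.01 and 0.82), and Slc2a1, a glucose transporter, fell from 121 ± 13.7 to 27.1 ± 4.0 CPM (-2.16 and -2.13).

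For supernatant itself, averaged over both IFNβ states, 5 of the 92 pathway genes were called, where 0.905% of all genes were. Of these, 4 were higher and 1 lower by edgeR's quasi-likelihood test, among them Thbs1, at a log2 difference of 0.97 ± 0.10 (SE, adjusted p = 0.00095). The 4 others, named after their values were seen, were S1pr1 (0.44), Havcr2 (0.30), Itgam (0.25) and Qpct (-0.24). Between the sources of IFNβ, Thbs1 (1.05 ± 0.14, adjusted p = 0.0105) and Itgam (0.34 ± 0.04, adjusted p = 0.00777) were higher with Ifnb1eGFP supernatant. These were 2.17% of the tested pathway genes, where 0.16% of all genes were called. Between eGFP supernatant and untreated control, Thbs1 was higher (0.89 ± 0.14, adjusted p = 0.0217) and Dock2 lower (-0.30 ± 0.05, adjusted p = 0.0402). Each was 1.09% of the tested pathway genes, where 0.299% of all genes were called in either direction.

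For each called member the 3 tested genes with the most similar pattern were found by the Pearson r of log2 CPM over the 12 libraries, as a description only, since all points share the 4 conditions. The number of genes this close differed widely between members. Cd47 lay closest to Slamf7, Crybg1 and Ifi207 (r = 0.999 each, with 11.9% of tested genes above 0.95), Mfge8 to genes that included Edem2 and Acox3 (8.64%) and Anxa1 to Esd, Pfn2 and Rnf13 (7.89%). Pros1 lay closest to Hsph1, Galnt7 and Sec63 (r = 0.994 for the first, 4.06%).

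For the other 4 called members under 1% of tested genes lay above 0.95. Gas6 lay closest to Nhsl3, St6galnac4 and Ube2l3 (r = 0.983 for the first, 0.705% above 0.95), Axl to Traf1, Pecam1 and C3 (r = 0.978, 0.353%), and Mertk to Dennd4c, Clock and B3galnt1 (r = 0.970, 0.0865%). Lrp1 lay closest to Dop1b, Nav1 and Pkd1 (r = 0.978), with only 5 genes above 0.95. Pecam1, here close to Axl, also stood in the list of inhibitory partners.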

How the data were processed

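The deposited table holds expected counts per gene, which the authors estimated with RSEM 1.3.3 from TruSeq Stranded Total RNA libraries. Their notes name GRCm39 and mm10 together, and the annotation and the strand setting of the counting are not given in the sources used here. Of all values 12% were not whole, and all were rounded. Gene symbols and positions came from GENCODE M39 (56017 of 56748 identifiers matched), and promoters from RefSeq on GRCm38.p6. All 12 libraries were fitted in 1 model of condition with edgeR 4.0.16 (filterByExpr, TMM factors, quasi-likelihood test, Benjamini-Hochberg over 15033 genes). CPM use the TMM-scaled totals, and 1 count was worth 0.0217 to 0.0318 CPM. Replicates differed by more than sampling noise (chi-square per degree of freedom 5.58 to 56.9), so none was merged. Ratios used a prior count of 0.5. DESeq2 1.42.0, other scalings, no filter, a replicate block and leaving out each library were tried as alternatives, and scripts were tested on simulated data. Members, lists and motifs were chosen with earlier results of these data known. Pathway genes are named as the largest called rise and fall of each list with Ifnb1eGFP against eGFP supernatant, plus 12 direct partners of members. Some genes that these rules select are not reported here.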

Additional observations from a re-analysis of the deposited data

How the results depend on the processing

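Of 288 re-computed estimates for members called in the 2 IFNβ comparisons, 281 kept their direction and call, 7 lost the call (Mertk and Lrp1, each with 1 library left out, as given above) and 0 took the other sign. Of 666 estimates for values not called, 51 took the other sign, 0 left the 95% interval of the reported value and 1 was called. With each library left out in turn, 6 to 8 members and 69 to 78 pathway genes were called with Ifnb1eGFP against eGFP supernatant, and 7 to 8 and 69 to 75 with rIFNβ. At the study's thresholds, 1 and 1 members and 11 (5 higher, 6 lower) and 10 (5 higher, 5 lower) pathway genes were called. Of all genes 5.39% and 5.77% were. With libraries left out, the Axl to Mertk difference ran from 0.90 to 1.16, that of Cd47 to Sirpa from 1.45 to 1.51 and that of Gas6 to Pros1 from -0.45 to -0.24. With the longest transcript as length, 6 of 10 members kept their rank with Ifnb1eGFP supernatant and 8 in each other condition.

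Libraries that share a replicate number deviated together, though weakly. Over 18 such pairs the mean r of the deviations from the condition means was 0.148 (0.0582 to 0.252), with 13 pairs over 0.1. Over 36 pairs with different numbers it was -0.0742 (-0.318 to 0.147), with 1 pair over 0.1. Deviations cancel within a condition, so these 2 means are not independent. Of 12 libraries, 12 correlated best with their own number, a hint from the data and not from the design. With a replicate block, Mertk was called for supernatant averaged over both IFNβ states (0.18, adjusted p = 0.0281 by edgeR), 1 member in place of 0, and the Gas6 to Pros1 difference of -0.33 had p = 0.03125 by exact sign permutation over 6 pairs. The block changed no other call of a member, and 79 and 75 pathway genes were called with it in the 2 IFNβ comparisons. The causes of these changes were not tested.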
